A study of Homo sapiens with 6 samples.

Results

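The glucocorticoid receptor gene NR3C1, the cortisol enzyme genes HSD11B1 and HSD11B2, and 7 genes known to answer to the hormone (ZBTB16, TSC22D3, FKBP5, DUSP1, KLF9, SGK1 and PER1) were examined in SCC-9 cells, an established line of squamous carcinoma cells from the tongue. These 10 genes were picked by symbol from the 25349 genes of the count table, and all 10 were found. They were picked with their differences between the groups already known, so those differences are given as a description, with no p-value. How many of the 10 passed the threshold of the fit over all genes is given only beside the share of all genes that did. Of the 6 libraries, 3 came from cells in which exon 7 of the proliferation gene MKI67 (Ki67) was targeted by siRNA (siE7, labelled siKi), and 3 from cells given a nonspecific siRNA (siNC, labelled NS). Cells were transfected with 10 nM siRNA on day 0 and again on day 2, and RNA was collected on day 4. Both groups were grown in DMEM and Ham's F12 with 10% serum and 400 ng/mL hydrocortisone, which is cortisol itself. The sources do not say whether the hormone was present during transfection, and they name no untreated or hormone-free cells. Several siRNAs against exon 7 are listed, and the one used here is not named. Whether the 3 libraries of a group came from separate cultures is not stated, so the p-values below measure only the spread between libraries, which may be technical.

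Cortisol acts through the glucocorticoid receptor, which waits in the cytoplasm on the chaperone HSP90, enters the nucleus when hormone binds, and switches genes on or off at DNA elements or by acting on other transcription factors. Within cells, the enzyme made by HSD11B1 regenerates cortisol from inactive cortisone, while the enzyme of HSD11B2 does the reverse. In keratinocytes and other squamous epithelia the hormone restrains inflammatory genes and influences proliferation and differentiation.

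The libraries held between 25608192 and 29550264 counts on genes. MKI67 lay at 1059.4 ± 26.7 CPM (counts scaled to a common library size with TMM factors; SD, n = 3) with siNC and at 114.7 ± 8.7 CPM (SD, n = 3) with siE7, with a log2 fold change of -3.21 and a Benjamini-Hochberg adjusted p of 6.71e-08 in edgeR's quasi-likelihood fit. Every siE7 library was below every siNC library for this gene, as its label implies. Keratin genes of squamous cells were abundant, with KRT14 reaching 14204.8 CPM, and the 10 squamous markers summed to between 21369.8 and 27854.8 CPM. Of these 10, 6 fell with siE7 (KRT5, KRT6B, TP63, SFN, CDH1 and EPCAM, with log2 fold changes of -0.33 for TP63 to -1.04 for KRT6B) and KRT17 rose by 0.70, all at an adjusted p under 0.05 in edgeR, while KRT14 at 0.31 was not called. Of 14 markers of other cell types, 4 passed 1 CPM in any library, led by MYH11, and the sum over the list was 123.9 to 135.3 CPM with siNC and 185.1 to 199.3 CPM with siE7. The defining immune markers PTPRC and CD3E were not among the genes of the count table, and PECAM1 and CDH5 of endothelium were near 0. One siE7 library, replicate 1, stood apart from the others of its group: a chi-square of counts per degree of freedom was 61.1 and 72.7 against siE7 replicates 2 and 3, where the other pairs within a group gave 5.54 to 6.22. Values without this library, or the values of each library, are therefore given for many results that rest on it. Its part in those results was not tested.

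Sequences near the starts of the 10 genes were read first, since the receptor binds DNA at a pair of inverted arms spaced by 3 bases. The windows reached 10000 bases to either side of the start of each gene's canonical transcript (GENCODE v44, GRCh38), and both strands were covered because the motifs searched are their own reverse complements. The perfect element, AGAACA and TGTTCT around 3 bases of any kind, occurred in none of the 10 windows and in 0.335% of the windows of 14639 tested genes. A looser core, GNACA and TGTNC around 3 bases, which every perfect element also contains, occurred in the windows of 5 of the 10 genes and in 22.5% of all windows. The matches to this looser core are shown so that their letters and distances can be read for the genes described below. They are written on the strand of the gene, 5′ to 3′, with the loose core in capitals and flanking genome in lower case.
PER1: agccaagaGAACATGATGTTCccaagtgc
FKBP5: gtggttcaGGACAGTGTGTTCagcgtttg
KLF9: agtaaaaaGGACAAACTGTTCcacaacaa
TSC22D3: atggcccaGAACATACTGTGCtgtcccaa
HSD11B1 at 2537 bases: tgctggagGTACAGCCTGTCCtggtccta
HSD11B1 at 2898 bases: tgctggagGTACAGCTTGTCCtggtccta
The PER1 match lies at chr17:8154461-8154473, 2063 bases upstream of the canonical start and inside an intron of longer annotated transcripts. The FKBP5 match lies in an intron at chr6:35687758-35687770, 1151 bases downstream of the start. The KLF9 match lies outside the gene at chr9:70420126-70420138, 5475 bases upstream. The TSC22D3 match lies in an intron at chrX:107767845-107767857, 7936 bases downstream. The HSD11B1 matches lie in an intron, at chr1:209707377-209707389 and chr1:209707738-209707750, with the same flanking letters. Genes higher with siE7 (PER1, FKBP5, KLF9, TSC22D3) and a gene that was lower (HSD11B1) hold the core, while ZBTB16, DUSP1, SGK1, NR3C1 and HSD11B2 have no match in these windows. Other annotated starts lie outside these windows, among them those of SGK1 near chr6:134174817-134175116 and of TSC22D3 near chrX:107717013-107717312. The looser core was not searched for around such starts, so the absence of a match covers the canonical start only. Binding was not measured here, and a match is only a run of letters. RefSeq promoter windows of 300 bases (GRCh38.p14) were matched for 8 of the 10 genes, 20 windows in all. In 2 of these, 1 of FKBP5 and 1 of SGK1, a single arm AGAACA or TGTTCT was found, an arm that 14.8% of all promoter windows hold.

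The hormone-responsive genes were mostly higher with siE7, the activating enzyme gene was lower, and the receptor gene differed between siE7 libraries. Of the 10 genes, 7 passed an adjusted p of 0.05 when edgeR was fitted over all genes, 6 of them higher and 1 lower with siE7. Among all 14661 tested genes 34.0% passed, 18.0% higher and 16.0% lower. With a log2 fold change beyond 1 also required (a differentially expressed gene, DEG), 5 were higher and 1 was lower, against 7.38% and 4.84% of all tested genes. For 8 of the 10 genes no siE7 value fell within the siNC range or the reverse, as for 47.6% of all tested genes. The median log2 fold change of the 10 genes was 0.87, and that of all tested genes was 0.08. Because the genes were picked with this contrast in view, nothing is read from these counts. Without siE7 replicate 1, 9 of the 10 genes passed, where the share over all genes was 59.2%. Under scaling by library totals instead of TMM 8 passed, where the share over all genes was 38.6%. In bulk RNA, more cells with a transcript and more transcript per cell cannot be told apart.

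**Figure D1:**
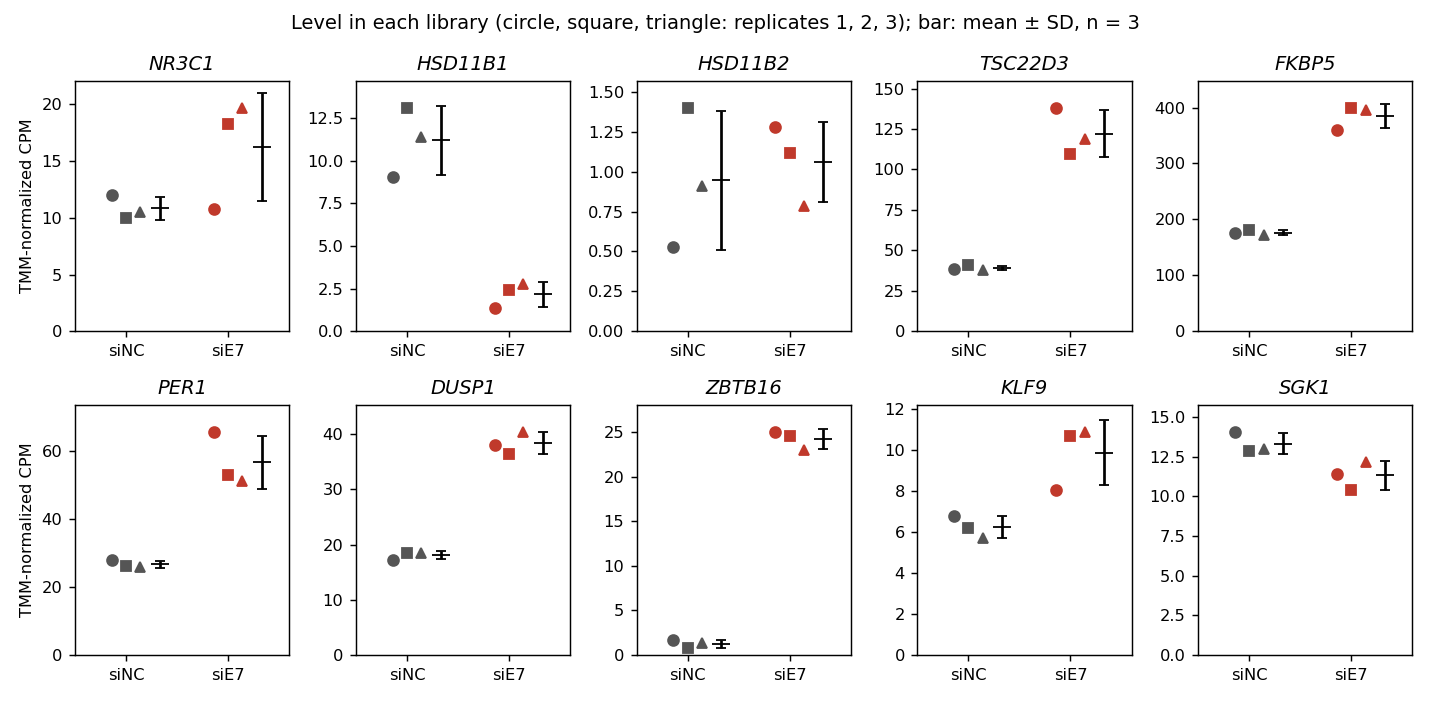
Level of each of the 10 genes in every library, in TMM-normalized CPM on linear axes that start at 0, for siNC (grey) and siE7 (red). Symbols stand for replicates 1, 2 and 3 and bars for the mean ± SD (n = 3). TSC22D3, FKBP5, PER1, DUSP1, ZBTB16 and KLF9 are higher in every siE7 library, HSD11B1 is lower in every one, and siE7 replicate 1 lies among the siNC libraries for NR3C1.

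The receptor gene NR3C1 (ENSG00000113580.15) spans chromosome 5 from 143277931 to 143435512 on the minus strand. Its level was 12.0, 10.0 and 10.5 CPM in siNC replicates 1 to 3 and 10.8, 18.3 and 19.7 CPM in siE7 replicates 1 to 3. Replicate 1 of siE7 thus lay between the siNC libraries, while the other siE7 libraries lay above all of them. The group means were 10.8 ± 1.03 CPM and 16.3 ± 4.79 CPM (SD, n = 3 each), with a log2 fold change of 0.59 (SE, a standard error derived from the fit's F statistic, 0.215). Without siE7 replicate 1 the log2 fold change was 0.75 (SE 0.114). Counts per gene do not separate the receptor's splice forms, and annotated genes overlap it on both strands. The mineralocorticoid receptor gene NR3C2, whose product also binds cortisol, was close to absent, with 0, 0 and 3 reads in the siNC libraries and 2 in each siE7 library.

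HSD11B1 (ENSG00000117594.10), for the enzyme that regenerates cortisol, spans chromosome 1 from 209686178 to 209734949 on the plus strand and is overlapped on the other strand by HSD11B1-AS1. It was measured at 9.07, 13.1 and 11.4 CPM with siNC and at 1.35, 2.43 and 2.75 CPM with siE7. Every siE7 library was well below every siNC library, and the mean was 5.13-fold lower in siE7 cells. The log2 fold change was -2.36 (SE 0.261), with 48 of the 14661 tested genes below it, and -2.16 without siE7 replicate 1. HSD11B2 (ENSG00000176387.7; chromosome 16, 67430652 to 67437553, plus strand), for the enzyme that inactivates cortisol, was scarce. Its reads numbered 13, 35 and 24 with siNC and 38, 31 and 24 with siE7, and the groups overlapped. Its log2 fold change was 0.17 with an interval from -0.62 to 0.95 (95%, from the standard error), so the sign of any change was not resolved. Per kilobase of exon, HSD11B1 was 30.4, 16.4 and 22.1 times as abundant as HSD11B2 in the siNC libraries and 1.86, 3.82 and 6.18 times in the siE7 libraries. The ratio was above 1 in every library and lower in each siE7 library than in any siNC library. H6PD, which supplies HSD11B1 with its cofactor inside the endoplasmic reticulum, had a log2 fold change of -0.29 (SE 0.152, adjusted p = 0.163 by edgeR's quasi-likelihood test). Without siE7 replicate 1 it was lower and called, at -0.54.

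ZBTB16 (ENSG00000109906.15; chromosome 11, 114059041 to 114256765, plus strand) encodes the zinc finger transcriptional repressor PLZF. It had 42, 20 and 34 reads with siNC and 745, 678 and 702 with siE7, or 1.7, 0.801 and 1.29 CPM against 25.1, 24.6 and 23.0 CPM. It passed from scarce to readily counted, a 19.2-fold ratio of means and a log2 fold change of 4.26 (SE 0.233), and 4 tested genes had a higher one. The siE7 libraries agreed closely, with a coefficient of variation of 4.65%, and siE7 replicate 1 did not stand apart. Annotated genes overlap ZBTB16 on the other strand only, and the use of strand in counting is not given in the sources used here.

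TSC22D3 (ENSG00000157514.17; chromosome X, 107713221 to 107777342, minus strand) encodes GILZ, a leucine zipper protein that restrains inflammatory transcription factors. Its level was 38.4, 40.7 and 38.0 CPM with siNC and 138.1, 109.3 and 119.0 CPM with siE7. The means were 39.0 ± 1.48 and 122.1 ± 14.6 CPM (SD, n = 3 each), 3.13-fold higher with siE7, with a log2 fold change of 1.65 (SE 0.122). Here siE7 replicate 1 was the highest library. FKBP5 (ENSG00000096060.15; chromosome 6, 35573585 to 35728583, minus strand) encodes an HSP90 co-chaperone that lowers the receptor's affinity for hormone, a feedback loop on the receptor. FKBP5 lay at 175.0, 181.8 and 172.0 CPM with siNC and at 359.5, 399.4 and 395.4 CPM with siE7. The gap between the groups far exceeded the spread within either, and the log2 fold change was 1.13 (SE 0.105). FKBP4, for the related co-chaperone that favours receptor transport to the nucleus, had a log2 fold change of -0.17 (SE 0.134, adjusted p = 0.346 by edgeR's test), and without siE7 replicate 1 it was lower and called, at -0.40. The ratio of FKBP5 to FKBP4 per kilobase of exon was 0.225 ± 0.00777 with siNC and 0.57 ± 0.127 with siE7 (SD, n = 3 each), and it was 0.423 in siE7 replicate 1.

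PER1 (ENSG00000179094.16; chromosome 17, 8140472 to 8156506, minus strand), a repressor of the circadian clock that is also switched on directly by the receptor, was at 27.9, 26.1 and 25.9 CPM with siNC and at 65.7, 52.9 and 51.2 CPM with siE7. All siE7 libraries were above all siNC libraries. The log2 fold change was 1.09 (SE 0.132), and without siE7 replicate 1, its highest library, it was 0.91. DUSP1 (ENSG00000120129.6; chromosome 5, 172768096 to 172771195, minus strand) encodes a phosphatase that switches off MAP kinases. DUSP1 was measured at 17.2, 18.4 and 18.5 CPM with siNC and at 38.1, 36.5 and 40.5 CPM with siE7, a tight separation with a log2 fold change of 1.09 (SE 0.123).

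KLF9 (ENSG00000119138.5; chromosome 9, 70384604 to 70414657, minus strand), a Krüppel-like transcription factor of epidermal cells, had 6.8, 6.21 and 5.72 CPM with siNC and 8.03, 10.7 and 10.9 CPM with siE7. Its siE7 libraries were all higher, with replicate 1 nearest to siNC. The log2 fold change was 0.66 (SE 0.182), and it lay between 0.58 and 0.73 when any 1 library was left out. SGK1 (ENSG00000118515.12; chromosome 6, 134169248 to 134318112, minus strand), the serum- and glucocorticoid-regulated kinase that acts on ion channels, differed from the other response genes in sign. It lay at 14.1, 12.9 and 13.0 CPM with siNC and at 11.4, 10.4 and 12.2 CPM with siE7. Its libraries did not overlap, but the log2 fold change was small, at -0.23 (interval from -0.52 to 0.06). Without siE7 replicate 1 it was -0.29, and under scaling by library totals it was -0.06.

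**Figure D2:**
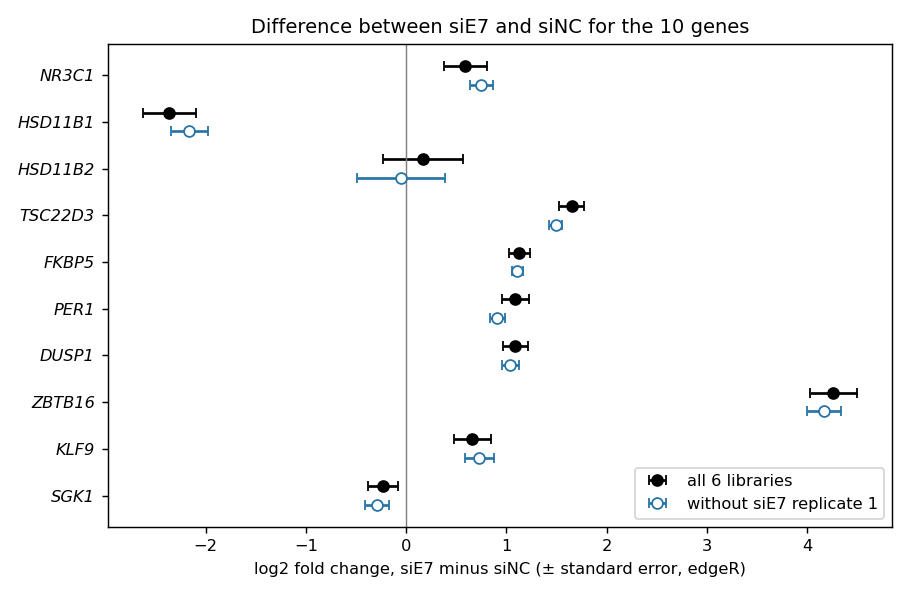
Log2 fold change (siE7 minus siNC) of the 10 genes with its standard error, derived from edgeR's F statistic. Filled points use all 6 libraries and open points leave out siE7 replicate 1. ZBTB16 stands highest at 4.26 and HSD11B1 lowest at -2.36, and only HSD11B2 changes sign, from 0.17 to -0.05, when that library is left out.

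On a scale of CPM per kilobase of exon (RPKM, from GENCODE exon lengths), FKBP5 was the most abundant of the 10 transcripts in both groups, at 16.6 ± 0.473 RPKM with siNC and 36.2 ± 2.07 RPKM with siE7 (SD, n = 3 each). With siNC it was followed by DUSP1 at 8.95 RPKM, then by TSC22D3 at 7.87 and HSD11B1 at 7.38 RPKM, whose libraries overlapped each other, and by PER1 at 3.8 RPKM. SGK1, KLF9 and NR3C1 lay between 1.18 and 1.34 RPKM, and neighbours in that order overlapped. HSD11B2 at 0.354 RPKM and ZBTB16 at 0.0763 RPKM came last, without overlap. With siE7 the order was FKBP5, TSC22D3 at 24.6, DUSP1 at 19.0 and PER1 at 8.08 RPKM, each apart from the next. KLF9, NR3C1, ZBTB16, HSD11B1 and SGK1 then formed a run from 1.9 to 1.14 RPKM in which each neighbour overlapped the next, and HSD11B2 was lowest at 0.398 RPKM. HSD11B1 thus held the fourth place with siNC and the eighth with siE7, and ZBTB16 the last and the seventh.

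**Figure D3:**
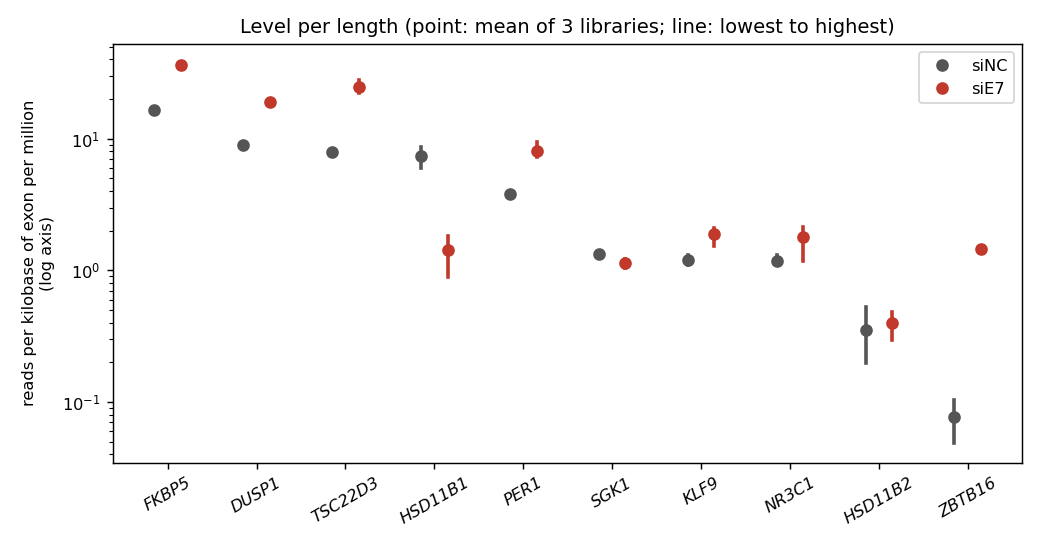
Level per length of the 10 genes in RPKM, on a log axis, ordered by the siNC level. Points are means of 3 libraries and lines run from the lowest to the highest library. FKBP5 leads in both groups, and ZBTB16 is at 0.0763 RPKM with siNC and 1.46 RPKM with siE7.

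Over the 6 libraries, the tested genes whose log2 CPM followed NR3C1 most closely were PSMC2, XPOT and ZNF367, with Pearson's r of 0.998 for PSMC2. For ZBTB16, which had the largest log2 fold change of the 10 genes in absolute value, they were LINC00680, NLRP1 and RP11-352M15.2, with r of 0.9988 for LINC00680. These values rest on 6 points that share 2 groups and the same libraries, and many genes with a group difference come close to them.

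Among genes for the proteins that hold, move and assist the receptor, none of those called had a log2 fold change beyond 1. Of 19 chaperone and transport genes, all tested, 2 were higher and 3 lower at an adjusted p under 0.05 by edgeR's quasi-likelihood test (26.3%, against 34.0% of all tested genes), and the median log2 fold change was -0.17 (0.08 over all tested genes). With library totals as scaling the split was 5 higher and 1 lower, where 38.6% of all tested genes were called, 4030 higher and 1632 lower. Without siE7 replicate 1, where 59.2% of all tested genes were called, the split was 5 higher and 10 lower. ST13, which joins HSP70 to HSP90, rose by 0.64 on the log2 scale (SE 0.111, adjusted p = 0.00129). PPID, an HSP90 co-chaperone of the cyclophilin kind, rose by 0.46, and left the threshold when any library but siE7 replicate 1 was left out. HSPA8, the constitutive HSP70, fell by 0.54 (SE 0.111, adjusted p = 0.00376). STIP1 and NUP62 both had a log2 fold change of -0.35 and lost their calls with library totals and when any library but siE7 replicate 1 was left out. HSP90AB1, the most abundant of the HSP90 genes here, had 6636.8 ± 105.9 CPM with siNC and 5510.3 ± 256.1 CPM with siE7 (SD, n = 3 each), and its log2 fold change of -0.27 missed the threshold (adjusted p = 0.0544, edgeR). HSP90AB1 was called by DESeq2 (-0.32), by limma-voom (-0.27), with RLE factors (-0.32) and without siE7 replicate 1 (-0.37). HSP90AA1 was at 824.0, 855.4 and 794.1 CPM with siNC and at 333.2, 909.7 and 952.7 CPM with siE7. Replicate 1 of siE7 alone was low, and the log2 fold change of HSP90AA1 was -0.17 with that library, 0.12 without it and 0.02 with library totals.

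Of 23 cofactor genes, 22 were tested, 1 was higher and 7 were lower by the same test (36.4%, against 34.0% of all tested genes, of which 16.0% were lower), with a median log2 fold change of -0.21 and no DEG. With library totals the split was 4 higher and 4 lower, against 4030 higher and 1632 lower over all tested genes. Without siE7 replicate 1 the split was 4 higher and 12 lower, against 59.2% of all tested genes called. NCOA3, a coactivator of the steroid receptors, rose by 0.54 on the log2 scale (SE 0.133, adjusted p = 0.00906, edgeR) and lost its call without siNC replicate 2. NCOA1 and NCOA2, of the same family, had log2 fold changes of 0.11 and 0.38 and were not called, but NCOA2 was called without siE7 replicate 1 (0.45) and with library totals (0.56). NRIP1, a corepressor of nuclear receptors, fell by 0.94 (SE 0.191), ARID1A of the SWI/SNF remodelling complex by 0.79 (SE 0.112), MED14 of the Mediator by 0.61 and the corepressor TRIM28 by 0.50. TRIM28 lost its call when any library but siE7 replicate 1 was left out, and was at -0.74 without that library. The corepressor NCOR1 had a log2 fold change of -0.20 and was not called.

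Among 31 genes for steroid synthesis, conversion and breakdown, 14 were tested, 3 were higher and 2 lower (35.7%, near the 34.0% of all tested genes). Without siE7 replicate 1 the split was 5 and 4, against 59.2% of all tested genes called. Of the genes of the adrenal route from cholesterol to cortisol, STAR, CYP21A2 and CYP11B1 did not pass the count filter. HSD3B1, HSD3B2 and CYP17A1 were not among the genes of the count table. CYP11A1, for the first step, had 6 to 42 reads and was not called (log2 fold change 0.87, adjusted p = 0.223, edgeR). The 3 that rose were AKR1C2, AKR1C1 and AKR1C3, ketosteroid reductases that act on several steroid hormones, with log2 fold changes of 3.44, 2.51 and 1.83 and adjusted p of 1.05e-05 or less by edgeR. They are near-identical neighbours between which reads could have been split. CBR1, a carbonyl reductase for which cortisol is one substrate, fell by 0.80 (SE 0.119), and HSD17B2, which oxidises sex steroids, by 0.57 (SE 0.148), a call lost without siNC replicate 1 or 2 or siE7 replicate 2. SRD5A1, a reductase that starts the breakdown of cortisol, had a log2 fold change of -0.13 (SE 0.179, adjusted p = 0.597, edgeR). Of 5 other steroid receptor genes, ESR1 and ESR2 were tested, and ESR2 rose from 0.422 ± 0.224 to 1.57 ± 0.313 CPM (SD, n = 3 each, adjusted p = 0.00486, edgeR) at levels where few reads were counted and where SYNE2 overlaps it.

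Other genes known to be induced by glucocorticoids were called about as often as all tested genes. How those called split by direction varied with the tool, the scaling and the libraries used, as did the split over all genes. Of 40 genes on a list written from general knowledge, 35 were tested, 10 were higher and 2 lower with siE7, 12 in all or 34.3%, close to the 34.0% of all tested genes. Over all tested genes 18.0% were higher and 16.0% lower. Their median log2 fold change was 0.15. With library totals 15 were higher and 2 lower, DESeq2 called 6 higher and 4 lower, and RLE scaling 6 and 3. Over all genes the called split was 2639 higher and 2351 lower in the main fit and 4030 and 1632 with library totals. DESeq2 called 2223 higher and 2635 lower over all genes, and RLE scaling 2314 and 2562. Without siE7 replicate 1 the split on this list was 14 and 11, against 59.2% of all tested genes called. CEBPD, an acute-phase transcription factor, rose by 1.32 on the log2 scale (SE 0.115, adjusted p = 1.28e-05, edgeR), from 22.8, 21.5 and 21.5 CPM to 55.4, 53.7 and 56.0 CPM. ERRFI1, an inhibitor of the EGF receptor, rose by 1.32 (SE 0.116), the transcriptional repressor BCL6 by 1.36 (SE 0.186) and DDIT4, an inhibitor of mTOR, by 1.00 (SE 0.114). MT2A, a metallothionein from a family of near-identical copies, fell from 5188.5 ± 536.0 to 1716.4 ± 104.7 CPM (SD, n = 3 each), a log2 fold change of -1.60. CRISPLD2, a secreted protein gene, had a log2 fold change of -1.20 from under 4 CPM and lost its call without siNC replicate 1 (-0.92) or siE7 replicate 2 (-1.04). NFKBIA, the inhibitor of NF-kB, had 0.21 (adjusted p = 0.134, edgeR) and was called with library totals at 0.38. ANXA1, an anti-inflammatory annexin, was at 124.4, 119.7 and 109.1 CPM with siNC and at 56.0, 107.9 and 111.6 CPM with siE7, where replicate 1 alone was low, and it was not called with all libraries (log2 fold change -0.36) but was without siE7 replicate 1 (-0.16) and without a filter (-0.37).

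Among inflammatory genes that glucocorticoids are known to restrain, most of those tested were called lower and none was called higher with all 6 libraries. Of 25 genes, 19 were tested, and 12 were lower by edgeR's quasi-likelihood test (63.2%, against 16.0% of all tested genes lower), 10 of them DEGs, with a median log2 fold change of -1.22. With library totals 11 fell, where 1632 of all tested genes were called lower and 4030 higher. Without siE7 replicate 1 13 fell and 2 rose. In that fit 59.2% of all tested genes were called in either direction, 4305 higher and 4369 lower. This list holds NF-kB and AP-1 targets that other signals also drive. It was chosen with earlier results of these data known, so its share is given as a description only. IL1B, a cytokine of keratinocytes, was at 69.1, 77.7 and 77.4 CPM with siNC and at 16.9, 18.3 and 15.7 CPM with siE7, a log2 fold change of -2.14 (SE 0.125, adjusted p = 9.37e-07, edgeR). The gelatinase gene MMP9 fell by 3.21 (SE 0.259), the neutrophil chemokine CXCL1, one of several similar paralogs, by 1.46 (SE 0.136) and the adhesion molecule ICAM1 by 1.31 (SE 0.134). IL6, CXCL8, CXCL2, CXCL3, CCL20, PTGS2 and MMP3 were not called. Their log2 fold changes were 0.05 for IL6 (SE 0.224), 0.55 for CXCL8, 0.04 for CXCL2 and -0.56 for CXCL3. For CCL20, PTGS2 and MMP3 they were 0.21, 0.94 and -1.3. CXCL8 was at 7.7, 6.81 and 7.84 CPM with siNC and at 4.93, 13.9 and 13.9 CPM with siE7. Replicate 1 of siE7 thus lay below all siNC libraries for CXCL8, and the other siE7 libraries lay above them. PTGS2, with few reads, was at 0.77, 0.641 and 0.454 CPM with siNC and at 0.675, 1.2 and 1.7 CPM with siE7. Log2 fold changes without siE7 replicate 1 are not given for CXCL8 and PTGS2.

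**Figure D4:**
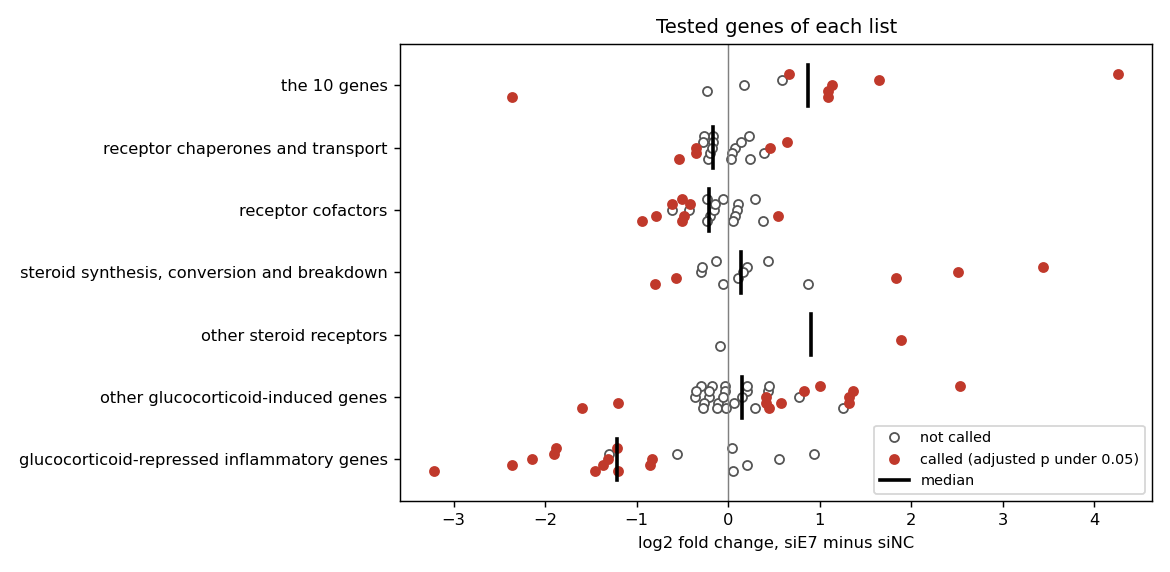
Log2 fold change (siE7 minus siNC) of each tested gene on the lists, with genes called at an adjusted p under 0.05 filled, others open, and a bar at the median. Vertical spread within a row only separates the points. The median lies at -1.22 for the glucocorticoid-repressed inflammatory genes, at 0.15 for the other induced genes and within 0.21 of 0 for the chaperones, cofactors and steroid enzymes.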

How the data were processed

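The authors deposited 1 table of raw counts of reads per gene for 6 libraries, without normalization. They describe stranded polyadenylated RNA libraries read as 150 base pairs from both ends, and the submitters' processing notes name HISAT2, DESeq2 and GRCh38. The counting tool, its annotation and its use of strand are not given in the sources used here. From these counts, edgeR 4.0.16 (R 4.3.3) kept 14661 of 25349 genes by filterByExpr, scaled libraries by TMM and compared siE7 with siNC by the robust quasi-likelihood test with Benjamini-Hochberg adjustment over all tested genes. A gene was called at an adjusted p-value under 0.05, and a DEG also had a log2 fold change beyond 1. With 3 libraries per group an exact permutation test cannot give a p below 0.1. The tests were checked on simulated data for this comparison, where edgeR recovered 75% of genes changed by 1 and 94.2% of those changed by 2 on the log2 scale, among 14607 genes. It also called 11 unchanged genes. The simulation changed only 96 genes by 1 and 104 by 2, and set no library apart. It therefore does not bear on the effect of scaling or of siE7 replicate 1 in the real data. Counts, with 25608192 to 29550264 per library, limit precision for genes with few reads, and intervals use the standard error times 1.96. That standard error was derived from the log2 fold change and the F statistic. With 3 libraries per group these intervals are approximate and may be too narrow. Exon lengths, positions and overlaps come from GENCODE v44, to which 25283 gene identifiers matched without version. Tables were made with Python 3.11.15, pandas 2.3.3 and matplotlib 3.10.9.

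The members and lists were chosen with earlier results of these data known. Genes named are MKI67, the 10 members, 17 genes of the receptor, enzyme and response lists fixed by name, the up to 4 called genes with the smallest p-values per list and direction, and the 3 genes most correlated with NR3C1 and with ZBTB16. Others (uncalled list genes, untested steroid enzymes and markers) were named after their values were seen. Some genes that this rule names are not reported here. The alternatives were DESeq2 1.42.0, limma-voom (limma 3.58.1), RLE factors, library totals, no filter, at least 10 counts in every library, a replicate block and each library left out.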

Additional observations from a re-analysis of the deposited data

How the results depend on the processing

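Over 13 alternatives the log2 fold changes of ZBTB16 (4.02 to 4.52), TSC22D3 (1.49 to 1.81), FKBP5 (1.07 to 1.30), DUSP1 (1.03 to 1.26), PER1 (0.91 to 1.25) and HSD11B1 (-2.57 to -2.16) kept their sign and their call. NR3C1 (0.42 to 0.77) was called with library totals, without a filter, with at least 10 counts in every library, with the replicate block and without siE7 replicate 1. With library totals 38.6% of all tested genes were called, and without siE7 replicate 1 59.2%. The 10 genes were picked with this contrast known, so their calls are given as a description only. HSD11B2 lay between -0.12 and 0.56. KLF9 (0.58 to 0.83) lost its call without siNC replicate 2 or 3 or siE7 replicate 2 or 3. Using library totals raised the median log2 fold change of all genes by 0.169 and gave 5662 called genes, 4030 higher and 1632 lower, against 2639 and 2351. Leaving out 1 library at a time gave 3159 to 8674 called genes, 1556 to 2121 DEGs, 6 to 9 of the 10 genes, 2 to 15 chaperone genes, 3 to 16 cofactors, 4 to 9 steroid enzyme genes, 1 other steroid receptor, 7 to 25 other induced genes and 11 to 15 repressed genes. The highest of these counts came without siE7 replicate 1. With at least 10 counts in every library 0 other steroid receptors were called, because ESR2 was not tested. The labels do not say whether the numbers of the replicates pair the libraries. Deviations of same-numbered libraries correlated at -0.0393, -0.0205 and -0.0521. With 3 libraries per group and siE7 replicate 1 apart from its group, these values cannot decide whether libraries were paired. With the replicate block 4947 genes were called, and 8 of the 10 genes, because NR3C1 passed at 0.55, and NUP62 lost its call at -0.36. Among 623 values of named genes 566 stayed on their side of the threshold, 40 lost a call and 17 gained one, and the sign changed in 0 values that were called, though uncalled genes such as HSD11B2 and HSP90AA1 did change sign. Few reads limit HSD11B2, NR3C2 and ESR2.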
